A study of Mus musculus with 41 samples.

Results

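The 500 widest promoter domains of histone H3 lysine 18 lactylation (H3K18la) in mouse gastrocnemius muscle (GAS) were described by their genes and by the marks and cell types that covered them. The domains were chosen by their measured width, end minus start, among the GAS H3K18la peaks on chromosomes 1 to 19 that overlapped a promoter, defined as 2 kb on each side of any annotated transcription start site (TSS). The rule took 500 of 12746 promoter peaks, and the whole GAS H3K18la list held 36813 peaks. Width is therefore a description of the domains and not a finding about them. The study profiled 4 histone marks by CUT&Tag, in which an antibody tethers the Tn5 transposase to the marked chromatin so that the DNA beside it is cut and sequenced. Each of the 24 combinations of cell type and mark was deposited as 1 peak list made after its samples were joined, from 41 samples in all, so that no value per replicate was at hand and tests were made across cell types.

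GAS nuclei came from whole, snap-frozen muscle of female C57Bl6/J mice aged 8 to 12 weeks, and the tissue therefore held fibres together with vessel, connective tissue and other nuclei. The cultured muscle cells were primary myoblasts (MB) and myotubes (MT) made from them by 3 days of differentiation. The macrophages were derived from bone marrow over 7 days (BMDM) or sorted from calf muscle 2 days after hindlimb ischemia (PIM). Adipocyte nuclei (ADIPO) were bound to beads from white fat of AdipoCre-NuTRAP mice aged 10 weeks, in which an adipocyte promoter drives the Cre that tags the nuclei. Embryonic stem cells of the E14 line were grown in serum with LIF (mESC-ser) or in 2i with LIF (mESC-2i), and unlike all others they were processed as whole cells. The MB and BMDM H3K18la lists rested on 1 sample each and the other 6 H3K18la lists on 2. In bulk tissue, a mark carried by fewer nuclei and a weaker mark in each nucleus cannot be told apart.

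Histone lactylation is the transfer of a lactyl group, derived from lactate, onto lysine residues, and H3K18la is known as a mark of active promoters and enhancers. H3K4me3 marks the start sites of active or poised genes, H3K27ac marks active promoters and enhancers, and H3K27me3 is laid down by Polycomb complexes at silent developmental genes. Wide stretches of active marks are known from genes that define the identity of a cell. Skeletal muscle is known for its high glycolytic flux and lactate output.

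The sequences before the start sites of 7 genes whose domains stand for the patterns described here are shown first. Zmiz1 lies in the widest domain. Hk2 and Atp2a1 are a glycolytic and a calcium-handling gene of muscle. The Asb2 and Klhl31 domains were covered by H3K18la in myotubes and in no non-muscle cell type. The Cmya5 domain had no H3K18la base in any other cell type, and the Klf6 domain was covered by at least 50% in all 7 of them. Each sequence holds the 250 bases before a RefSeq start site (GRCm38.p6) and is written 5′ to 3′ on the strand of the gene. Capitals mark any match, on either strand, to 7 motifs: the E-box CAGCTG, the MEF2 core TAAAAATA, the M-CAT motif CATTCC, the estrogen-related receptor site AAGGTCA, the TATA box TATAAA, the GC box GGGCGG and the steroid receptor site ACANNNTGT.
Zmiz1, chr14:25458935-25459184, plus strand: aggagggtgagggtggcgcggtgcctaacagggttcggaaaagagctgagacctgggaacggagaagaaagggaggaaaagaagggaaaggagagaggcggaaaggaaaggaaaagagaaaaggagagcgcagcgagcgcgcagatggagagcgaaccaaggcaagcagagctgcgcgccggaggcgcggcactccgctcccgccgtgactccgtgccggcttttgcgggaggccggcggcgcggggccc
Hk2, chr6:82774455-82774704, minus strand: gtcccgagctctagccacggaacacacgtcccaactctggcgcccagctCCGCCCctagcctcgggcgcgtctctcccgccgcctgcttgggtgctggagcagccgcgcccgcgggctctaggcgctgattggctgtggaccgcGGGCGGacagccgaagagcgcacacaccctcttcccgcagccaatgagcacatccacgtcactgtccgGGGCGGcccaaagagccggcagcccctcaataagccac
Atp2a1, chr7:126463074-126463323, minus strand: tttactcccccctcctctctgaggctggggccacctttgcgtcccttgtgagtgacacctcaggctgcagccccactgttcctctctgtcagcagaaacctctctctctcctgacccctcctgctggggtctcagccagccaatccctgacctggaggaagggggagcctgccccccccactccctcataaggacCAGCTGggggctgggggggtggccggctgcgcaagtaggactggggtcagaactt
Asb2, chr12:103356002-103356251, minus strand: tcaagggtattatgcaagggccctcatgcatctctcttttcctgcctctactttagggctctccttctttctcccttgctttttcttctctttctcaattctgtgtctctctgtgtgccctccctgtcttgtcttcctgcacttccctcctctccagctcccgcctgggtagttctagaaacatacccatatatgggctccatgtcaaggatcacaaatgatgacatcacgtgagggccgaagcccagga
Klhl31, chr9:77636482-77636731, plus strand: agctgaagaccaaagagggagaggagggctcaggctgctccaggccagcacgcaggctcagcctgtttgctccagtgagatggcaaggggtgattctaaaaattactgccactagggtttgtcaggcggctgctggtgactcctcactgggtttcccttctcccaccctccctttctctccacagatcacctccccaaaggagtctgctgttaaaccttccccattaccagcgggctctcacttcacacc
Cmya5, chr13:93144725-93144974, minus strand: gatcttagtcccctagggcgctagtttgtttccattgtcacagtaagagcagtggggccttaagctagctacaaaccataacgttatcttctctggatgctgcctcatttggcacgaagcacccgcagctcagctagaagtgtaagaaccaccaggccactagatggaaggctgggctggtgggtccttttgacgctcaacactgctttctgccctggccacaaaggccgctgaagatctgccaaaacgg
Klf6, chr13:5861239-5861488, plus strand: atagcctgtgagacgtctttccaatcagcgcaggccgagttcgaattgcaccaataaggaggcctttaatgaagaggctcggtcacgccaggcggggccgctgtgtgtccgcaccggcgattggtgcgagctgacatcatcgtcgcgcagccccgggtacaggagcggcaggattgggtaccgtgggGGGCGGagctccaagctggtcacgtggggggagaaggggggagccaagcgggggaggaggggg

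The 3 sequences at Zmiz1, Hk2 and Klf6 were rich in CpG, with 25, 25 and 21 CpG dinucleotides in 250 bases. Those at Atp2a1, Asb2 and Klhl31 held 3 each, and that at Cmya5 held 7. A GC box was found 3 times before Hk2 and once before Klf6, an E-box was found before Atp2a1, and the other 4 sequences held none of the 7 motifs. Of 334 protein-coding lead genes, 261 matched the RefSeq promoter table by symbol. The windows that lay wholly inside the domain of their gene numbered 212, from 153 genes. Of these, 17.0% held the E-box, against 12.3% of all 19174 windows of the same length on chromosomes 1 to 19. Those 19174 were not limited to genes with a GAS H3K18la peak, and the part of this in the differences was not tested. The GC box was found in 54.2% against 44.6% and the TATA box in 5.19% (11 windows) against 11.2%. The estrogen-related receptor site was found in 6.6% against 3.55% and the MEF2 core in 0.943% (2 windows) against 1.83%. The M-CAT motif (11.8% against 11.4%) and the steroid receptor site (6.13% against 5.1%) were close. A match describes the letters of the window and does not show that a factor binds there.

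The domains ranged from 12710 to 84415 bp in width, with a median of 17054 bp, while the other 12246 promoter peaks had a median of 2407 bp. They made up 3.92% of the promoter peaks and 19.6% of their bases, in all 9.81 Mb. At the threshold, the narrowest members were at Mef2d (12716 bp) and Rbpms (12710 bp), and the widest peaks left out were at Irf2bp2 (12698 bp) and Camk2g (12694 bp). There was no gap in width between those inside and those outside. The authors report that the peak caller often merged several nearby smaller peaks, and how many domains were joined this way was not tested. Width was not limited to promoters, since 264 of the 23576 GAS H3K18la peaks without a promoter were at least as wide as the narrowest member.

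**Figure D1:**
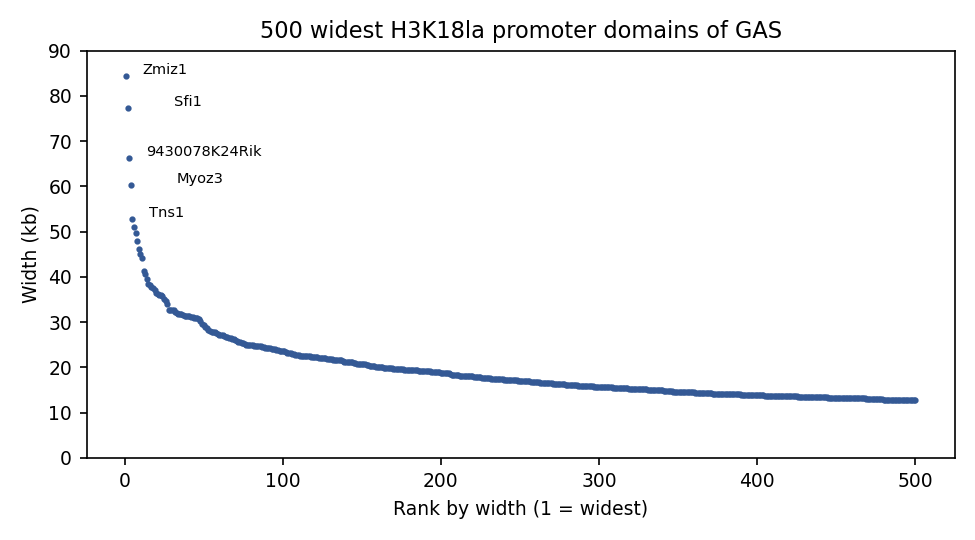
Width in kb (vertical axis) of each of the 500 domains by rank (horizontal axis), 1 point per domain, with the lead genes of the 5 widest named. Width fell steeply from 84415 bp at Zmiz1 and levelled off towards the narrowest member at 12710 bp.

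Each domain was given a lead gene, the protein-coding gene whose TSS lay nearest to the stretch of highest coverage. This was possible for 376 domains, while 124 overlapped only promoters of non-coding or other transcripts. The 391 protein-coding genes with a promoter in a domain were 1.88% of the 20780 such genes on chromosomes 1 to 19, and 5.08% of the 7697 that had any GAS H3K18la promoter peak. Domains with 1 protein-coding gene numbered 330, and 46 held more. Some genes led several domains. Dab2ip, encoding a Ras GTPase-activating protein, was the lead gene of 5 domains, Sgms1, encoding a sphingomyelin synthase, of 4, and the splicing regulator gene Mbnl1 and the taurine transporter gene Slc6a6 of 3 each. In all 35 genes led more than 1 domain, and 36 pairs of neighbouring domains were at most 10000 bp apart.

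The widest domain, at chr14:25455532-25539946 (GRCm38), spanned 84415 bp around a TSS of Zmiz1, a transcriptional co-regulator. It reached 47123 bp upstream and 37291 bp downstream of that site and took in 38.9% of the gene. MT H3K18la covered 96.0% of it and PIM H3K18la 84.0%, while mESC-ser and mESC-2i covered 6.44% and 8.06%. The third, at chr12:79884722-79951079, held the non-coding RNA gene 9430078K24Rik and no protein-coding promoter, and was covered by MT to 78.1% and by mESC-2i not at all. The fourth held Myoz3, encoding a Z-disc protein that binds calcineurin, together with Synpo, and GAS H3K27ac covered all of its 60314 bp. Tns1, encoding the focal adhesion protein tensin 1, led the fifth and the sixth, of 52809 and 51073 bp. ADIPO H3K18la covered these to 94.0% and 63.4%, and MT to 60.3% and 72.1%. The next 4 were led by Foxn3, a forkhead repressor gene, Trak1, an adaptor for mitochondrial transport, Mical2, an actin-modifying enzyme, and Pitpnm2, a phosphatidylinositol transfer protein. The stem cells differed among these 4. Their H3K18la covered the Foxn3 domain to 72.5% in mESC-ser and 100% in mESC-2i and the Trak1 domain to 81.7% and 94.4%, but left the Mical2 and Pitpnm2 domains bare.

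A pair of wide domains was covered by GAS H3K27me3 as well as by the active GAS marks. The second widest, at chr11:3122842-3200114 around Sfi1, which encodes a centrosomal protein, was covered to at least 50% by 17 of the 23 other lists, among them GAS H3K4me3 at 97.7%, GAS H3K27ac at 100% and GAS H3K27me3 at 92.5%. The fifteenth, at chr9:3000001-3038345, held 9 predicted genes (Gm10717 and neighbours) and reached a maximum coverage of 17264, against a median of 160 over the domains. It was covered to at least 50% by 13 of the 23 lists, a number also reached at Junb, Zfp36, Klf6 and others. H3K27me3 lists made up 4 of the 13 here and 0 of those at Junb, Zfp36 and Klf6. GAS H3K4me3 covered 100% of it and GAS H3K27me3 80.3%. Neither region was compared here with a list of known high-signal or repeat regions, and their coverage is given with that limit. The only other domain covered to at least 50% by GAS H3K27me3 was at Tinagl1, a matrix protein gene, with 54.5% and no GAS H3K27ac base. Without these 3 domains, the mean difference in H3K18la coverage described below was 1.52 in place of 1.66 percentage points, that in H3K27me3 coverage −2.35 in place of −2.09, and the cultured muscle difference 11.6 in place of 11.3.

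The domains were next set against the other GAS marks, which describe the tissue itself and rest on 1 joined list each, so no test was made. H3K27ac covered most of the width, H3K4me3 a smaller part of it and H3K27me3 almost none. The H3K27ac list was also larger, at 197 Mb against 52.8 Mb for H3K4me3. Relative to the genome, the domains' bases were covered 3.55 on the log2 scale by H3K27ac and 3.74 by H3K4me3, so that this order was the reverse of that in covered share. H3K27ac covered a mean of 86.2% of a domain, against 64.9% of the other promoter peaks. At least 50% was covered in 470 of 500 domains (94.0%, 95% Wilson interval 91.6 to 95.8) and in 67.9% of the other peaks. H3K4me3 covered a mean of 26.9% of a domain against 45.8% of the other peaks, and at least 50% of 87 domains (17.4%, 14.3 to 21.0) against 48.5%. The 500 peaks next in width had 79.5% for H3K27ac and 32.2% for H3K4me3, so that both shares changed gradually with width. H3K27me3 covered a mean of 1.03% against 3.74%, with 478 domains (95.6%, against 94.3% of the other peaks) holding no base of it, and at least 50% of 3 domains (0.6%) against 3.76%. The differences in the share covered to at least 50% were 26.1 percentage points (Newcombe 95% interval 23.5 to 28.0) for H3K27ac, −31.1 (−34.3 to −27.5) for H3K4me3 and −3.16 (−3.69 to −1.96) for H3K27me3. These intervals cover the counting of peaks only.

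In bases, a domain held a median of 15226 bp under H3K27ac and 4332 bp under H3K4me3. The H3K27ac was in most domains a single called peak, with 266 of 500 domains overlapping exactly 1, and H3K4me3 formed a median of 2 peaks. Counting any overlap rather than the covered share turned the direction for H3K4me3, since 425 of 500 domains held at least some of it, 20 percentage points more than among the narrower peaks. Of the domains, 208 (41.6%) overlapped the 500 widest GAS H3K27ac promoter peaks, against 5.23% of the other promoter peaks, and 39.0% of those 500 overlapped a domain. For the 500 widest GAS H3K4me3 promoter peaks the shares were 19% of the domains, against 3.96% of the other peaks, and 20.2% of the H3K4me3 peaks. A wider region meets any peak more readily, so neither share shows more than that the lists meet.

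**Figure D2:**
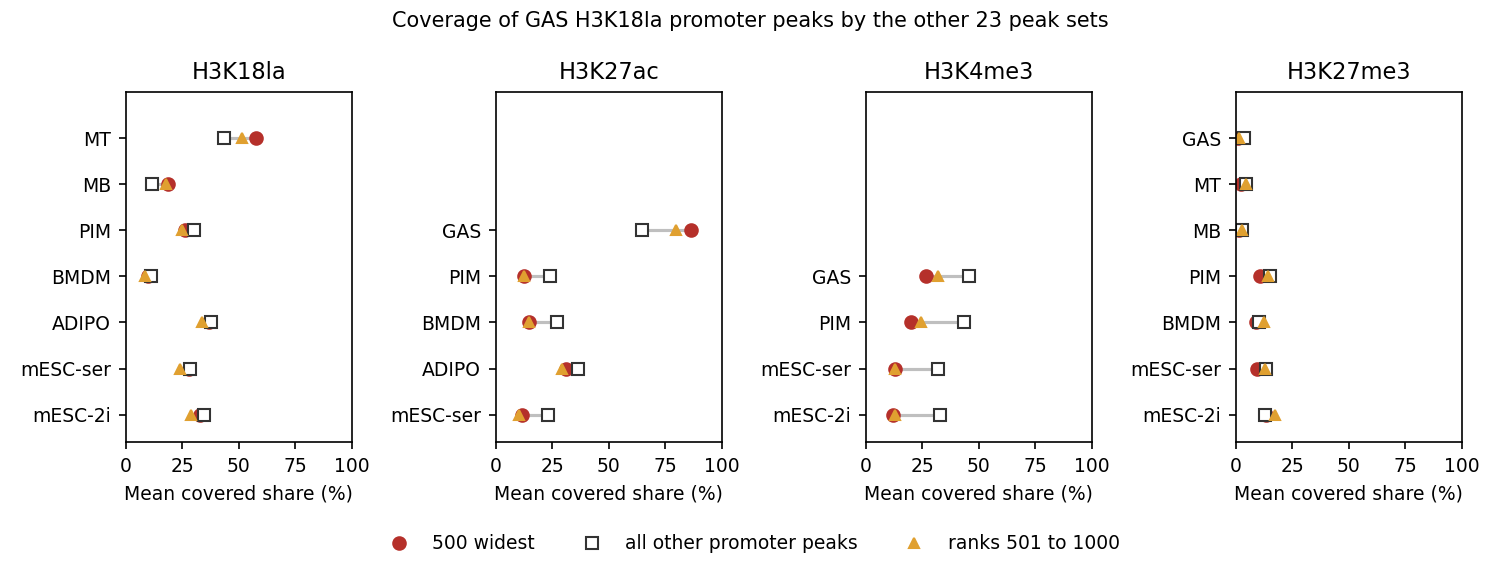
Mean share of a region covered (horizontal axis, percent) by each of the 23 other peak lists (rows, by cell type, 1 panel per mark) for the 500 domains (circles), all other promoter peaks (squares) and the 500 peaks next in width (triangles). GAS H3K27ac lay at 86.2% for the domains and 64.9% for the other peaks, GAS H3K4me3 at 26.9% and 45.8%.

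Around the lead TSS, the marks had different extents. That of H3K18la follows from the choice of members by its width, and its values are given as the frame for the other marks. In the 1 kb downstream of the TSS, H3K18la covered 90.7%, H3K27ac 85.9% and H3K4me3 64.6% on average over 376 domains. In the bin starting at 9 kb these were 70.5%, 79.0% and 13.1%, and in the bin starting at −10 kb 59.9%, 65.4% and 12.2%. H3K4me3 thus fell within a few kb of the TSS on both sides, while H3K27ac reached as far as H3K18la. The stretch of highest H3K18la coverage lay within 1 kb of the lead TSS in 91 of 376 domains (24.2%, Wilson interval 20.1 to 28.8), and in 63.7% of the 9607 other promoter peaks with a protein-coding lead gene. A narrow promoter peak leaves little room for its highest stretch to lie far from the TSS, so this contrast is largely set by the choice of wide peaks and nothing was read from it. It lay downstream of the TSS in 56.6% of domains and in 45.6% of the other peaks, a median of 450 bp downstream, with the central 50% of domains from −1755 to 4944 bp. A median of 100% of a domain lay inside the annotated span of its lead gene, which took in a median of 23.8% of that gene, so that bases upstream of an internal start site counted as gene body. The whole lead gene lay inside 39 domains (10.4%). A wide region holds a whole gene more readily, and no share of the other peaks is given, so nothing was read from this count. Klf15, Btg2, Junb and Klf6 were among the lead genes of these 39.

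**Figure D3:**
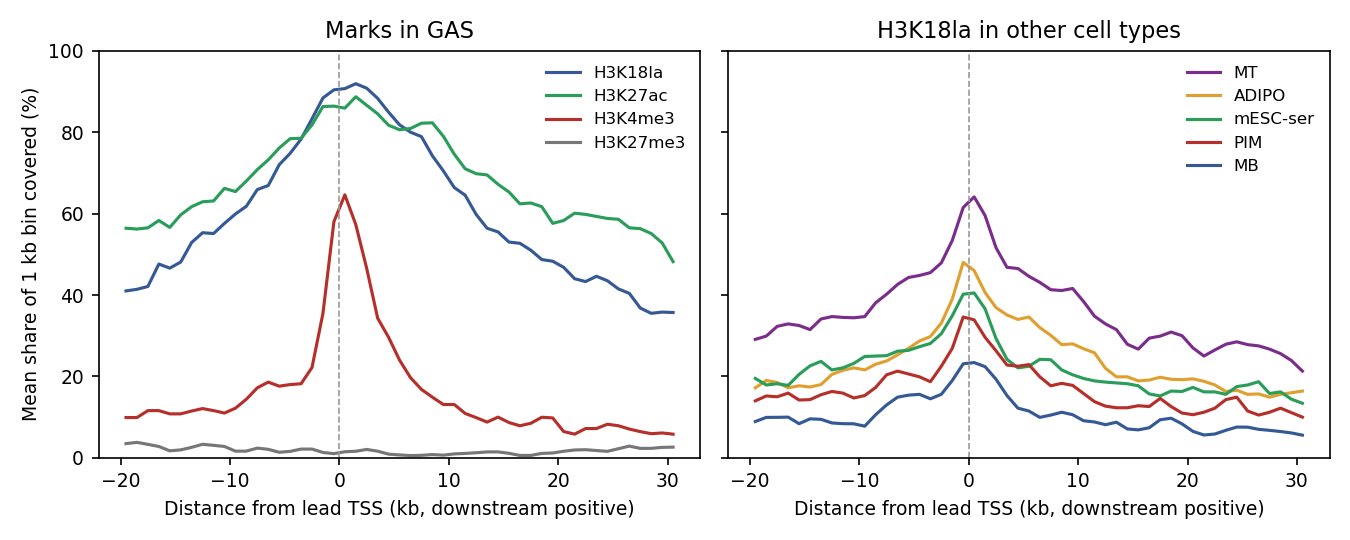
Mean share of each 1 kb bin covered (vertical axis, percent) by distance from the lead TSS in kb (horizontal axis, downstream positive) over 376 domains with a protein-coding lead gene, for the 4 GAS marks (left) and for H3K18la of 5 other cell types (right). H3K27ac stayed broad, as did H3K18la, by whose width the domains were chosen, while H3K4me3 peaked at 64.6% just downstream of the TSS, and MT H3K18la was the highest of the 5 at 64.1%.

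The 300 bases around the point of highest coverage held the E-box CAGCTG in 173 of 500 domains (34.6%), against 22.8% of the other promoter peaks. The MEF2 core TAAAAATA, the core of the site of muscle MEF2 factors, was found in 7.60% against 3.33%, the estrogen-related receptor site AAGGTCA in 9.80% against 6.87%, and the steroid receptor site ACANNNTGT in 11.2% against 8.17%. The M-CAT motif CATTCC was found in 18.2% against 15.4%. The GC box GGGCGG was the reverse, at 17.2% against 27.9%, and TATAAA was found in 7.60% against 9.30%. Both strands were searched. Base composition was close, with a median GC content of 55.0% against 54.0% and 5 against 6 CpG. These windows lay away from the start site more often in the domains, as given above, and the part of that difference in the motif shares was not tested.

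H3K18la of the other cell types was then compared over the domains, to ask how far the widest lactylation of muscle tissue was shared. Myotubes covered them most and bone marrow macrophages least. MT covered a mean of 57.4% of a domain (43.5% of the other promoter peaks), ADIPO 36.7% (37.6%), mESC-2i 32.6% (34.7%), mESC-ser 27.9% (28.5%), PIM 26.1% (30.3%), MB 18.5% (11.6%) and BMDM 9.85% (11.3%). The domains thus exceeded the other peaks in MT by 13.9 and in MB by 6.93 percentage points, and lay below them in the 5 non-muscle cell types by 0.562 to 4.20. Over all 7 cell types the difference was 1.66 ± 6.42 percentage points (SD, n = 7 cell types) and did not pass the exact two-sided sign-flip test (p = 0.609, adjusted p = 0.609 over 3 tests, smallest possible p = 0.0156). The 500 peaks next in width are nearer in size though all narrower (median 10508 bp against 17054 bp). Against these, the domains were covered more in 7 of 7 cell types, by 2.84 percentage points on average. The exact sign-flip test gave p = 0.0156, the smallest it can give, outside the adjustment over 3 tests. It takes the 7 cell types as independent, though MT were made from MB, and the stem cells and the macrophages each form a related pair.

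The lists differed in how much of the genome they held, from 22.6 Mb in BMDM to 137 Mb in MT, and the order of the cell types followed this in part. Coverage of the domains' bases over that of the genome lay between 2.73 on the log2 scale in mESC-2i and 3.7 in ADIPO. MT lay at 3.52, MB at 3.63 and BMDM at 3.64. With the lists reduced to equal bases, the domains exceeded the other promoter peaks by 8.85 percentage points (exact sign-flip test, p = 0.0312, unadjusted). They did so in 6 of 7 cell types, among them PIM (5.19), mESC-2i (7.94), mESC-ser (8.39) and ADIPO (12.6), and lay below in BMDM (−1.42). The comparison of MB and MT with the 5 non-muscle cell types gave a mean coverage of 38.0% against 26.6%, a difference of 11.3 percentage points (exact permutation test over the 21 ways to choose 2 of 7, p = 0.429, adjusted p = 0.609, smallest possible p = 0.0476). It rested on MT, and without MT the difference was −8.09. Set against the other promoter peaks of the same list, the excess was 10.4 percentage points in cultured muscle cells and −1.84 in non-muscle cells. This difference of 12.3 had an exact permutation p = 0.0476, the smallest possible, and this measure was chosen after the values were seen. With the lists reduced to equal bases it was 8.09 (exact permutation test, p = 0.19), the non-muscle excess running from −1.42 to 12.6. The difference of 12.3 also did not hold against the 500 peaks next in width. There the excess was 3.26 in cultured muscle cells (5.99 in MT and 0.531 in MB) and 2.68 in non-muscle cells. Their difference was 0.58 (exact permutation test, p = 0.81).

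**Figure D4:**
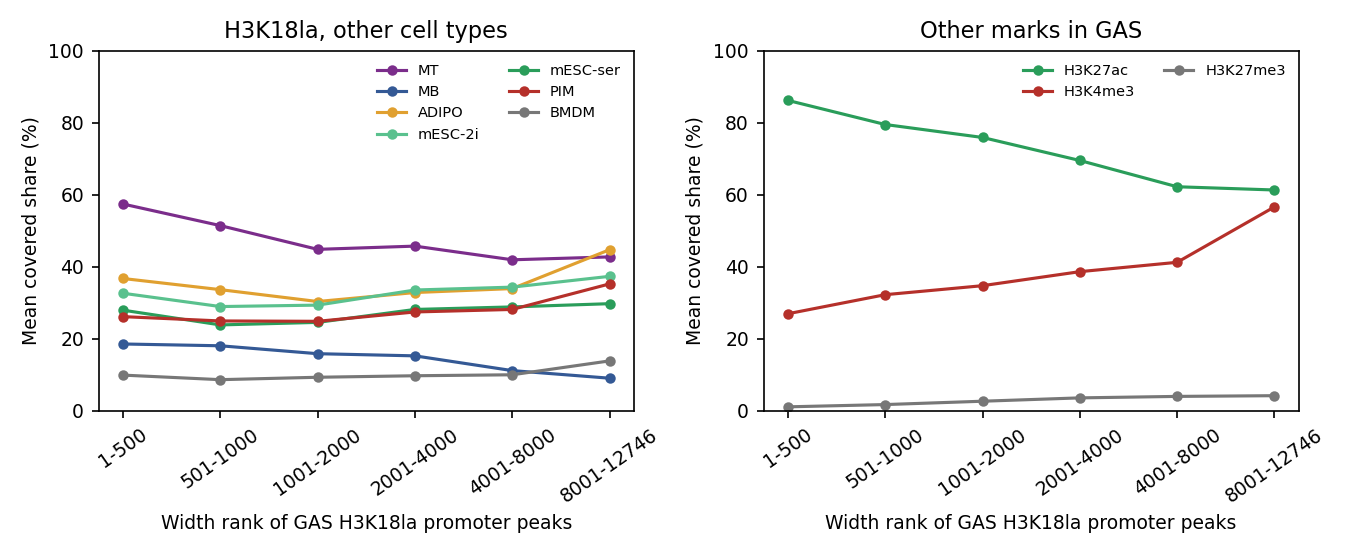
Mean covered share (vertical axis, percent) by width rank of the GAS H3K18la promoter peaks (horizontal axis, from the 500 widest to the narrowest 4746), for H3K18la of 7 other cell types (left) and for 3 other GAS marks (right). MT fell from 57.4% to 42.7% and MB from 18.5% to 8.99% with falling width, while GAS H3K4me3 increased from 26.9% to 56.6%.

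In counts, MT H3K18la covered at least 50% of 312 domains (62.4%, against 46.3% of the other promoter peaks), ADIPO of 174 (34.8%, against 39.9%), mESC-2i of 153 (30.6%, against 35.9%), mESC-ser of 126 (25.2%, against 29.8%), PIM of 105 (21.0%, against 32.1%), MB of 59 (11.8%, against 12.2%) and BMDM of 15 (3.00%, against 10.0%). The MT share lay above that of the other peaks and the MB share beside it. Of the 59 domains covered to this extent in MB, 56 were so in MT as well (11.2% of all domains, against 11.4% of the other peaks). Of the 312 of MT, 86 held no MB base at all (17.2% of all domains, against 31.3%) and 123 were covered to at least 50% in ADIPO too (24.6%, against 23.4%), a share close to that of the other peaks. The 500 widest promoter peaks of another cell type were met by more domains in MT than elsewhere, at 26.6% of the domains against 3.35% of the other promoter peaks, and 25.8% of the MT peaks. The like shares of the domains were 17.4% for ADIPO (against 3.04%), 14.6% for MB (2.55%), 14% for mESC-ser (3.54%), 12.4% for PIM (2.61%), 12% for mESC-2i (4.01%) and 9.80% for BMDM (2.43%). A wider region meets any peak more readily, so these shares were read only as an order.

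The domains were then counted by the number of other cell types that covered them. The share of the other peaks is given only for none and for all 7, so the spread was not read as particular to the domains. At least 50% coverage was reached in no other cell type by 99 domains (19.8%, against 23.5% of the other peaks), in 1 by 144, in 2 by 106, in 3 by 72, in 4 by 42, in 5 by 20, in 6 by 15 and in all 7 by 2 (0.4%, against 1.06% of the other peaks). These 2 lay at the non-coding gene A630001O12Rik (22796 bp) and at Klf6 (13393 bp), a zinc finger gene of the early response. At Klf6, at chr13:5859523-5872915, H3K18la coverage was 100% in MT and PIM, 93.3% in MB, 86.8% in ADIPO, 81.8% in BMDM, 71.5% in mESC-2i and 54.6% in mESC-ser. No H3K18la base in any other cell type was found for 3 domains (0.6%, against 15.8% of the other peaks, which are narrower and so more easily missed). They lay at C2cd2 (15673 bp), Sel1l3 (15664 bp) and Cmya5 (14803 bp), the last encoding myospryn, a costamere protein of striated muscle. GAS H3K27ac covered them to 91.7%, 71.0% and 100%. The Sel1l3 domain was covered to 100% by H3K27me3 in MT.

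The domains covered to at least 50% in MT and in no non-muscle cell type numbered 97 (19.4%, 16.2 to 23.1), against 11% of the other peaks. In 18 of them (3.6% of the domains, against 7.61% of the other peaks) no non-muscle list held any base. Genes known in muscle among these were Asb2, encoding an ubiquitin ligase subunit that targets filamins, Filip1, encoding a filamin-interacting protein, the kelch gene Klhl31 and the Z-disc gene Pdlim3. MT coverage was 61.1% at Asb2 (19876 bp), 61.9% at Filip1 (19492 bp), 88.2% at Klhl31 (17004 bp) and 51.8% at Pdlim3 (15643 bp). MB coverage of the same domains was 10.1%, 0%, 14.4% and 0%. H3K27me3 of MT covered 76.2% of the Pdlim3 domain, more than H3K18la did there, and none of the other 3. Kcnc1, a potassium channel gene (25798 bp), Dapk2, a kinase gene (25012 bp), and Slit1, a guidance cue gene (17629 bp), belonged to the same set, with MT coverage of 56.6%, 66.0% and 100%, and MT H3K27me3 covered 58.5% of the Kcnc1 domain and none of the other two.

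Genes of muscle function were then followed through lists of known genes. Of 43 sarcomere genes, 37 had a GAS H3K18la promoter peak and 7 a promoter in a domain. This is 18.9% of those with a peak, against 5.08% of all protein-coding genes with a peak, and 16.3% of the list, against 1.88% of all protein-coding genes. They were Tnnt3, the fast troponin T, Tpm1, a tropomyosin, Tnni1, the slow troponin I, Mylk2, the skeletal myosin light chain kinase, Myom1, an M-band protein, Cmya5 and Ldb3, a Z-disc protein. The Tnnt3 domain was the widest of them, 34746 bp at chr7:142469591-142504336, and was shared with Lsp1. The 7 domains had a median MT H3K18la coverage of 71.9%, MB of 23.9%, mESC-ser of 19.3% and PIM of 8.73%, while the medians in BMDM, ADIPO and mESC-2i were 0. The Myom1 domain had the highest coverage in both cultured cells, 95.2% in MT and 87.7% in MB. It also held the promoters of Myl12a and Myl12b, and the Tnni1 domain that of Phlda3, its lead gene, so their coverage cannot be assigned to 1 gene. Cmya5 had none. Of the 7, Tnni1, Ldb3 and Myom1 were covered in ADIPO, to 81.9%, 58.4% and 24.5%. Of the listed heavy chain genes, Myh1, Myh2 and Myh7 had no GAS H3K18la promoter peak, while Myh4 had a peak but no promoter in a domain.

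In the lists that follow, the share in domains is given over the genes with a GAS promoter peak, of which the background is 5.08%. Of 26 genes of calcium handling and excitation, 21 had a peak and 2 (9.52%) lay in domains. These were Atp2a1, the fast calcium pump of the sarcoplasmic reticulum (13197 bp), and Jph1, a junctophilin (13335 bp), with MT coverage of 69.9% and 46.7% and no base in MB, macrophages or ADIPO. The mESC-ser list covered 27% of the Atp2a1 domain and none of that at Jph1. Of 21 genes of glycogen, glycolysis and phosphagens, all had a GAS promoter peak and 4 (19%) lay in domains. Hk2, encoding hexokinase 2, had 31657 bp at chr6:82745896-82777552 and was widely shared, at 87.7% in MT, 87.7% in ADIPO, 63.2% in mESC-2i, 56.4% in mESC-ser, 32.4% in MB, 19.4% in PIM and 8.27% in BMDM. The others, Ampd1, an AMP deaminase, Pfkm, the muscle phosphofructokinase, and Pygm, the muscle glycogen phosphorylase, held no H3K18la base in MB, PIM, BMDM or ADIPO, and MT covered 31.4%, 18.3% and 28.6% of them. The mESC-ser list covered 24%, 16.4% and 23.8%, close to MT, and mESC-2i 28.2% of Ampd1 and none of the others. GAS H3K27ac covered them to 100%, 100% and 88.9%. Of 18 genes of lipid use, 17 had a peak and 2 (11.8%) lay in domains, Ppard (20798 bp), a nuclear receptor, and Pnpla2 (13276 bp), a triglyceride lipase.

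Of 21 myogenic and fibre-type factors, 20 had a peak and 7 (35% of these, against 5.08% of all genes with a peak) lay in domains. Among them were Tead1, Nfatc1, Tbx15, Myf5, Myf6 and Mef2d, with Myf5 and Myf6, neighbouring myogenic factors, in 1 domain of 13793 bp. Tead1, a TEA domain factor, led domains covered by MT to 65.9% and 100% and by MB not at all. Tbx15, a T-box factor of fast fibres, also had 2 domains, and that of 14750 bp was covered by H3K27me3 to 97.0% in mESC-ser and 100% in PIM. Mef2d and Nfatc1 had MT coverage of 0% and 6.49%. Of 19 patterning factors, 10 had a peak, and 2 of these (20%) lay in domains. Hoxa9 and Hoxa10 shared 1 domain of 13282 bp, covered by H3K27me3 to 95.2% in mESC-ser, 87.3% in mESC-2i and 100% in both macrophages, and by GAS H3K4me3 to 100%.

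Genes of muscle wasting, glucocorticoid response and the clock had a further 6 of 21 (28.6%), all 21 having a peak (background 5.08%). Fbxo32, the ubiquitin ligase atrogin-1, had 23659 bp with MT coverage of 47.1%. Fkbp5 and Klf15, glucocorticoid target genes, were covered in ADIPO to 88.1% and 67.1% and in mESC-2i to 94.1% and 67.2%, but in MT to 0% and 16.8%. The clock repressors Bhlhe40 and Nr1d1 and Ddit4, an mTOR inhibitor, were covered in MT to 88.5%, 46.6% and 85.5%. Immediate early genes, all with a peak, had 6 of 18 (33.3%), namely Klf2, Nr4a1, Btg2, Junb, Zfp36 and Klf6. Among the 6 lists with at least 3 domains when 1 domain, the widest, was taken per gene, theirs had the highest medians in MT, PIM, BMDM and both stem cell types, at 89.7% in MT, 57.2% in PIM, 44.0% in BMDM, 69.8% in mESC-ser and 85.6% in mESC-2i. Klf2 was counted through a domain of 27880 bp whose lead gene was Gm10282.

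**Figure D5:**
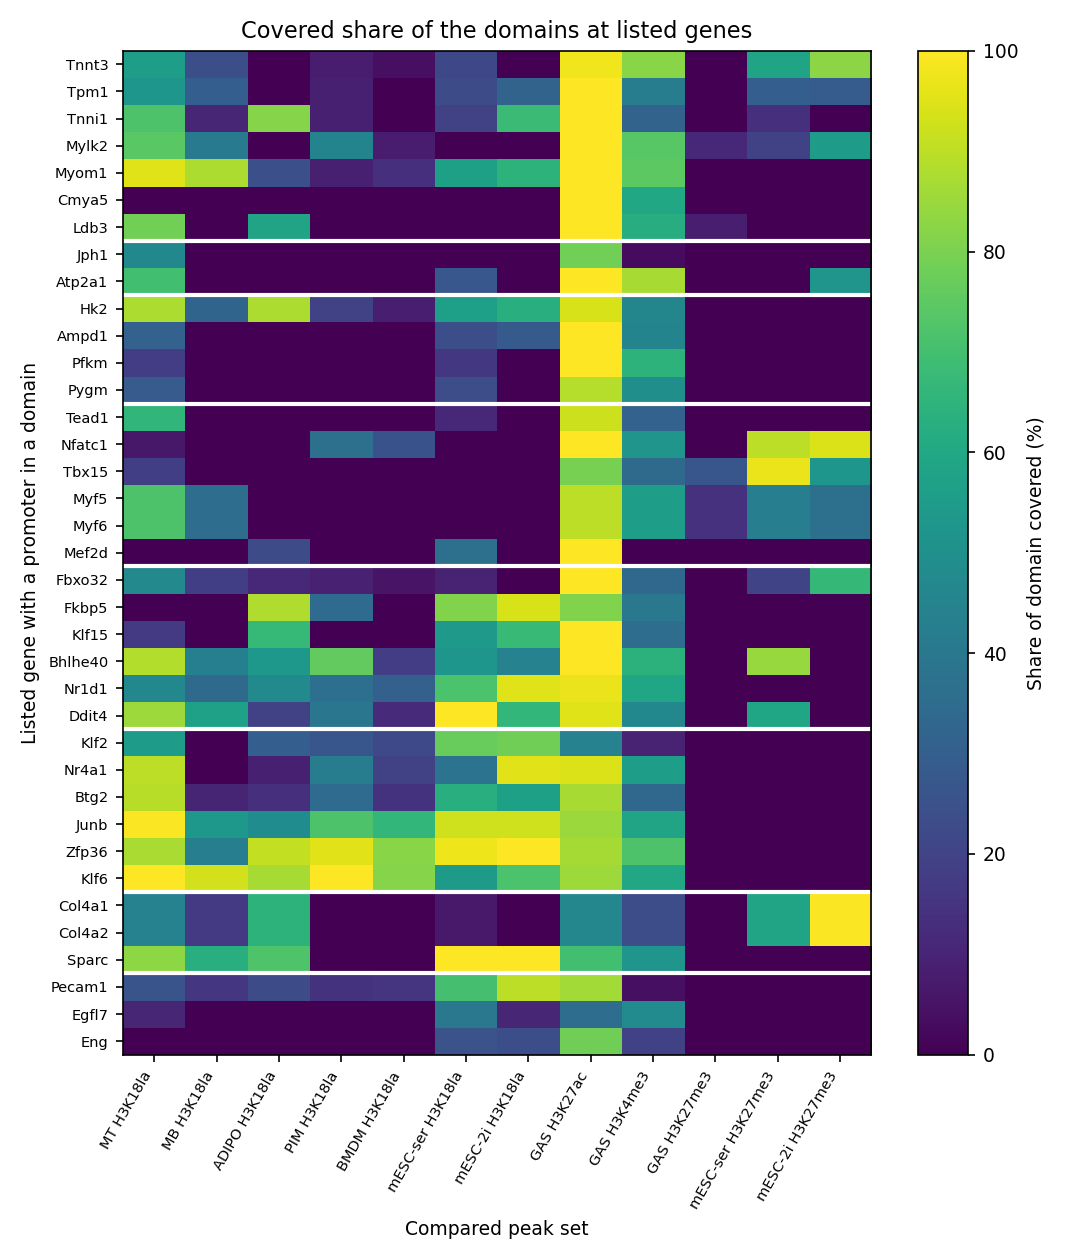
Share of the domain covered (colour, percent) by 12 peak lists (columns) for listed genes with a promoter in a domain (rows), with white lines between the lists, from sarcomere genes at the top to endothelial genes at the bottom. The immediate early genes were covered in most cell types, and Ampd1, Pfkm and Pygm mainly by the active GAS marks.

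Markers of other cells of the tissue were followed as well. Of 15 endothelial genes all had a GAS H3K18la promoter peak and 3 (20%, against 5.08% of all genes with a peak) lay in domains, Pecam1 (24159 bp), Egfl7 and Eng. MT covered 25.9%, 10.9% and 0% of these. Of 15 fibroblast and matrix genes, 14 had a peak and 3 (21.4%) lay in domains, a share like that of the sarcomere genes. Col4a1 and Col4a2, basement membrane collagens with a common promoter, and Sparc were these. No domain held a macrophage (11 listed), adipocyte (8), smooth muscle and pericyte (8), Schwann cell (4 annotated on these chromosomes), pluripotency (7) or housekeeping gene (8). At the background of 1.88% lists of this length would seldom hold any, so nothing was read from these zeros. A GAS H3K18la promoter peak of any width was found at 3 of the 11 macrophage genes and 3 of the 8 adipocyte genes. These were Csf1r, Spi1 and C1qa of macrophages and Pparg, Cebpa and Fabp4 of adipocytes. Adgre1, Ptprc and Itgam of macrophages, and Adipoq and Plin1 of adipocytes, were among those without a peak. Of all protein-coding genes on these chromosomes, 7697 of 20780 had such a peak, so nothing was read from these counts. Of 6 satellite cell genes, 3 had a peak, of which Sdc4 lay in a domain, and 3 had none (Pax7, Pax3 and Calcr).

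GAS H3K4me3 and H3K27ac each covered under 10% of 5 domains (1%, against 14.2% of the other promoter peaks), which ranked from 422 to 500, at Gm19653, Cdc42ep4, Gm35202, Frmd4b and Rbpms. The Frmd4b and Gm19653 domains are neighbours, and PIM H3K18la covered 92.0% and 70.9% of them and BMDM 75.2% and 65.7%, with MT at 0% and 19.7%. Cdc42ep4 was covered by MT to 83.2%. A larger group of 61 domains (12.2%, 9.62 to 15.4, against 18.7% of the other peaks) had no GAS H3K4me3 base but at least 50% H3K27ac. Mical2 (46092 bp), with H3K27ac at 60.7%, and both domains of Mtss1 (26682 and 25212 bp), an actin and membrane adaptor gene, were among them, as was that of Ift122 (25457 bp), a gene of ciliary transport.

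H3K27me3 of the other cell types was compared in the same way, to ask whether muscle domains are repressed elsewhere. It covered a mean of 13.5% of a domain in mESC-2i (12.8% of the other promoter peaks), 11% in PIM (15.2%), 9.66% in mESC-ser (13.6%), 9.14% in BMDM (10.4%), 2.48% in MT (4.82%) and 1.46% in MB (2.96%). It was thus lower over the domains in 5 of 6 cell types, by 2.09 ± 1.82 percentage points (SD, n = 6 cell types) averaged over all 6, which did not pass the exact sign-flip test (p = 0.0625, adjusted p = 0.188 over 3 tests, smallest possible p = 0.0312). Against the 500 peaks next in width the difference was −2.89, with 6 of 6 cell types lower (exact sign-flip test, p = 0.0312). This p-value was outside the adjustment and took related cell types as independent. Counting any overlap gave 5.73 and a TSS inside a peak 2.76, each higher over the domains in 5 of 6 cell types. Both measures favour wide regions, and neither passed the threshold. Coding TSS only gave −0.144. At least 50% was covered in 65 domains in mESC-2i (13.0%, against 13.1%), 44 in BMDM (8.80%, against 10.6%), 43 in PIM (8.60%, against 15.5%), 36 in mESC-ser (7.2%, against 14%), 10 in MT (2.00%, against 4.83%) and 2 in MB (0.4%, against 2.90%).

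In both stem cell types at once, H3K27me3 covered at least 50% of 21 domains (4.20%, 2.76 to 6.34), against 7.84% of the other peaks. Beside the regions at Sfi1 and Gm10717, the widest were at Nfix, encoding a nuclear factor I, Lsp1 with Tnnt3, Col4a1 (2 domains), Zbtb16, a zinc finger repressor, Exoc3l4, Asb2 and Tbc1d1, a Rab GTPase-activating protein of glucose transport. The Nfix domain of 36182 bp was covered to 95.8% in mESC-ser and 56.6% in mESC-2i, and in GAS by H3K27ac to 99.9%. At Tnnt3 the shares were 58.3% and 82.8%, and at Asb2 53.3% and 85.4%. The Col4a1 domains differed from these in having less GAS H3K27ac, 46.2% and 20.7%.

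H3K27ac and H3K4me3 of other cell types covered less of the domains than of all other promoter peaks in each list. H3K27ac covered at least 50% of 26.6% of domains in ADIPO (against 38.9%), 8.60% in BMDM (29.0%), 7.2% in mESC-ser (24.2%) and 4.20% in PIM (22.8%). For H3K4me3 the shares were 11.4% in PIM (against 45.6%), 7.60% in mESC-ser (33.0%) and 5.20% in mESC-2i (34.3%). Relative to the 500 peaks next in width the mean covered shares of H3K27ac differed by 0.0923 to 1.73 percentage points, all higher over the domains, and those of H3K4me3 were lower by 0.309 to 4.50.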

How the data were processed

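CUT&Tag of H3K18la, H3K27ac, H3K4me3 and H3K27me3 was analysed in 8 cell types and tissues (41 samples, 24 groups, of which 17 had 2 samples and 7 had 1). The authors trimmed reads with Trim Galore 0.6.6, aligned them to mm10 with Bowtie2 2.4.4, joined the replicates' coverage with bedtools 2.30 and called peaks with SEACR 1.3, keeping the top 1% of regions. The deposited lists give 2 values per peak: the total signal in a peak, treated here as a score, and the maximum coverage, treated as a signal. Neither was scaled for depth, and the peak lists hold no read depth, so that depth was not used here and no interval rests on it. No value was compared between lists other than covered bases.

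TSS were taken from GENCODE vM21 (139486 transcripts) on GRCm38, the same build as mm10. The domains, gene lists and tests were chosen with earlier results of these data known. The covered share of a region is the percentage of its bases inside any peak of another list. Tests were an exact two-sided sign-flip test over cell types, and an exact permutation test for cultured muscle against non-muscle cell types, with Benjamini-Hochberg adjustment over 3 tests. A p-value then measures the spread between cell types and takes them as independent, although some of them are related. Wilson and Newcombe 95% intervals cover counting of regions only. The genes named are the lead genes of the 10 widest domains, the 10 widest without H3K18la in any other cell type, the 10 widest covered to at least 50% in all 7, the 10 widest with H3K27me3 in both stem cell types, the 5 widest with GAS H3K27me3, the 5 widest under 10% for both active GAS marks, those at the threshold, and up to 8 genes per list. Genes named for MT coverage without non-muscle coverage, for GAS H3K27ac without H3K4me3, and for leading several domains were chosen after their values were seen. The values of 1 gene counted in the lists are not reported here. Analyses used Python with numpy and pandas, and the interval and test functions were checked against bedtools and simulated data. Alternatives varied the number of domains, the promoter definition, the measure of coverage, the comparison peaks and the lists kept.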

Additional observations from a re-analysis of the deposited data

Results flagged for a closer look

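Among the 4 cell types other than GAS with an H3K27ac list, ADIPO had the highest coverage of the domains. ADIPO H3K27ac covered a mean of 31.2% of a domain, against 14.9% in BMDM, 12.5% in PIM and 11.8% in mESC-ser, and its difference from the other promoter peaks was −5.22 percentage points, against −11.4 to −12.1 in the other 3. Its list was also the largest of the 4, at 54.5 Mb against 27.4 to 32.8 Mb. It was joined from 2 samples, while the other 3 lists rested on 1 sample each. The part of list size and of sample number in the result was not tested. Relative to the genome, coverage of the domains' bases was 3.96 on the log2 scale in ADIPO and 3.28 to 3.64 in the others. Against the 500 peaks next in width the ADIPO difference was 1.73, beside 1.55 in mESC-ser. Of 6 such sets of values examined, 2 had a member this far out, both from these same 4 lists, and chance alone gives this in about 1 in 20 sets.

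The excess of H3K18la coverage over the other promoter peaks differed between cultured muscle cells and the 5 non-muscle cell types by 12.3 percentage points (exact permutation test, p = 0.0476, the smallest possible with 21 choices). The measure was chosen after the values were seen. The excess was 13.9 in MT and 6.93 in MB, and −4.20 to −0.562 in the non-muscle types. With the lists reduced to equal bases it was 21.3 in MT, 7.99 in MB and −1.42 to 12.6 in the non-muscle types. The difference between the groups was then 8.09 (p = 0.19, exact permutation test). Against the 500 peaks next in width, MT had 5.99 and MB 0.531, the lowest of the 7, the non-muscle types had 1.21 to 4.10, and the difference between the groups was 0.58 (p = 0.81, exact permutation test). The difference of 12.3 thus did not hold against the peaks nearest in width, which were still narrower, at a median of 10508 bp against 17054 bp.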

How the results depend on the processing

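Values are differences in percentage points, domains minus other promoter peaks, unless stated. For H3K18la in other cell types (1.66), leaving out each cell type gave −0.382 (without MT) to 2.63. The 250 widest gave 3.43, the 1000 widest 0.185, 1 kb promoters 0.0334, nuclei only 2.86 and lists whose samples name the target under the label antibody 2.93, none past the threshold. Coding TSS only gave −2.93 and the share covered to at least 50% −2.48, neither past the threshold. The exact sign-flip test passed with the 5000 peaks of largest signal (10.2), any overlap (27.2), the next 500 peaks as comparison (2.84), a TSS inside a peak (12.2) and equal bases (8.85). For H3K27me3 (−2.09) leaving out each cell type gave −2.64 to −1.67. It came close to 0 with coding TSS (−0.144) and was smaller with the 1000 widest (−0.607), 5000 peaks (−1.12) and equal bases (−1.19), none past the threshold. Passing were the share covered to at least 50% (−3.48) and the next 500 peaks (−2.89), while any overlap (5.73) and a TSS inside a peak (2.76) had the opposite sign without passing. For cultured muscle against non-muscle (11.3) leaving out each cell type gave −8.09 (without MT) to 30.7 (without MB), equal bases gave 5.65, and the difference from the other peaks, gave 12.3 and passed, that in the share covered to at least 50% gave 14.5 and passed, that with equal bases 8.09 (p = 0.19) and that from the next 500 peaks 0.58 (p = 0.81, exact permutation tests). These 4 were added after seeing the data. The measures with any overlap or a TSS favour wide regions by construction. Lists reduced to equal bases or 5000 peaks were cut by total signal, a sum that grows with width. The part of this in their values, and the cause of the other changes, was not tested.

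GAS H3K27ac (21.3) had 24.1 with 250 domains, 18.6 with 1000, 18.7 with coding TSS, 48.7 with 5000 peaks, 26.1 for the share covered to at least 50%, 23.7 for any overlap, 6.65 against the next 500 and 25.3 for a TSS inside. GAS H3K4me3 (−19) had −22.5 with 1 kb promoters, −24.6 with coding TSS, −9.47 with 5000 peaks, −31.1 for the share covered to at least 50% and −5.32 against the next 500, and turned to 20 for any overlap and 4.05 for a TSS inside. GAS H3K27me3 (−2.71) had −0.562 with 5000 peaks, −1.28 for any overlap and −0.632 against the next 500. Of the 500 domains, 482 were kept with 1 kb promoters and 312 with coding TSS. No paired analysis was possible because the replicates were joined before peaks were called. Read depth was not used, lists held different bases, and width depends on the caller's threshold, so that a domain missing from a list was not detected there.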

Other observations

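On the X chromosome, which the rule left out, 180 GAS H3K18la promoter peaks were found and 1 was at least as wide as the narrowest domain, 27591 bp at Mid1, which encodes a ubiquitin ligase that binds microtubules. The domains were spread unevenly, from 14 on chromosome 13 to 49 on chromosome 11. Of the 500 domains, 145 (29%, against 52.8% of the other promoter peaks) held no H3K18la base in either macrophage list. In the stem cells, 112 domains (22.4%, against 25.6%) were covered to at least 50% in both media, 41 (8.2%, against 10.4%) in mESC-2i and not mESC-ser, and 14 (2.8%, against 4.26%) in mESC-ser and not mESC-2i.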
